A study of Homo sapiens with 24 samples.

Results

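The super-enhancers near 10 transcription factors of blood development were described in OCI-Ly7 cells, an established human line of GCB-DLBCL, the form of diffuse large B-cell lymphoma that resembles germinal center B cells. The 10 genes were BCL11A, HHEX, RUNX1, RUNX3, MYB, LMO2, ZEB2, GFI1, MEIS1 and KLF2, out of 19970 protein-coding genes. A region was assigned to a gene when it overlapped the GENCODE version 44 gene body on hg38, extended by 50 kb on each side. This rule took in 9 of the 2615 super-enhancers in the table.

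The study profiled H3K27ac, H3K4me1 and H3K4me3 by CUT&RUN, a method that tethers a nuclease to an antibody-bound mark and sequences the fragments it frees. It used isogenic OCI-Ly7 clones in 4 genotypes: CRISPR non-edited control clones (WT), a CREBBP point mutant (C), a KMT2D knockout (K) and both lesions combined (CK), with 2 replicates for each mark and genotype. The super-enhancer table covers WT H3K27ac alone, with both WT libraries combined in 1 signal column, and the other 22 samples have no value in it. All clones came from a single lymphoma line grown in culture under the same conditions, so the values describe WT OCI-Ly7 cells and not germinal center B cells in tissue. No region has a replicate error or a read count, no test between samples was possible, and every comparison below is a description.

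H3K27ac is laid down at active enhancers and promoters by the acetyltransferases CREBBP and EP300. A super-enhancer is a group of neighboring enhancer peaks, joined into a stitched region, whose summed signal is unusually high, and such regions often lie near genes that set the identity of a cell. The factors considered here act early in blood formation, in stem and progenitor cells or at lineage choice, and several of them act again in mature B cells. The signal of a region is the sum that the ROSE program gives over its length, rank 1 is the highest signal, and constituents are the peaks joined in a region. Signal per bp is the signal divided by the length, and regions and genes were linked by distance alone.

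WT cells carried a super-enhancer within 50 kb of BCL11A, HHEX, RUNX1, RUNX3 and MYB, which are 5 of the 10 factors (50%). The same window held a region at 30.7% of all protein-coding genes. LMO2, ZEB2, GFI1, MEIS1 and KLF2 had none. Since a longer gene has a wider window, the share was also taken within 10 equal classes of gene length, and in the classes of the factors it lay between 25.5% for HHEX and KLF2 and 37.6% for BCL11A, ZEB2 and MEIS1. RUNX1 had 3 regions, RUNX3 and BCL11A 2 each, and HHEX and MYB 1 each. The median was 1 over all genes with a region, not split by length. The region with the highest signal was at RUNX3 (rank 249), followed by HHEX (rank 369), RUNX1 (rank 389), BCL11A (rank 572) and MYB (rank 2252). With a single pooled column, which of these neighboring ranks differ beyond replicate spread cannot be told.

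**Figure D1:**
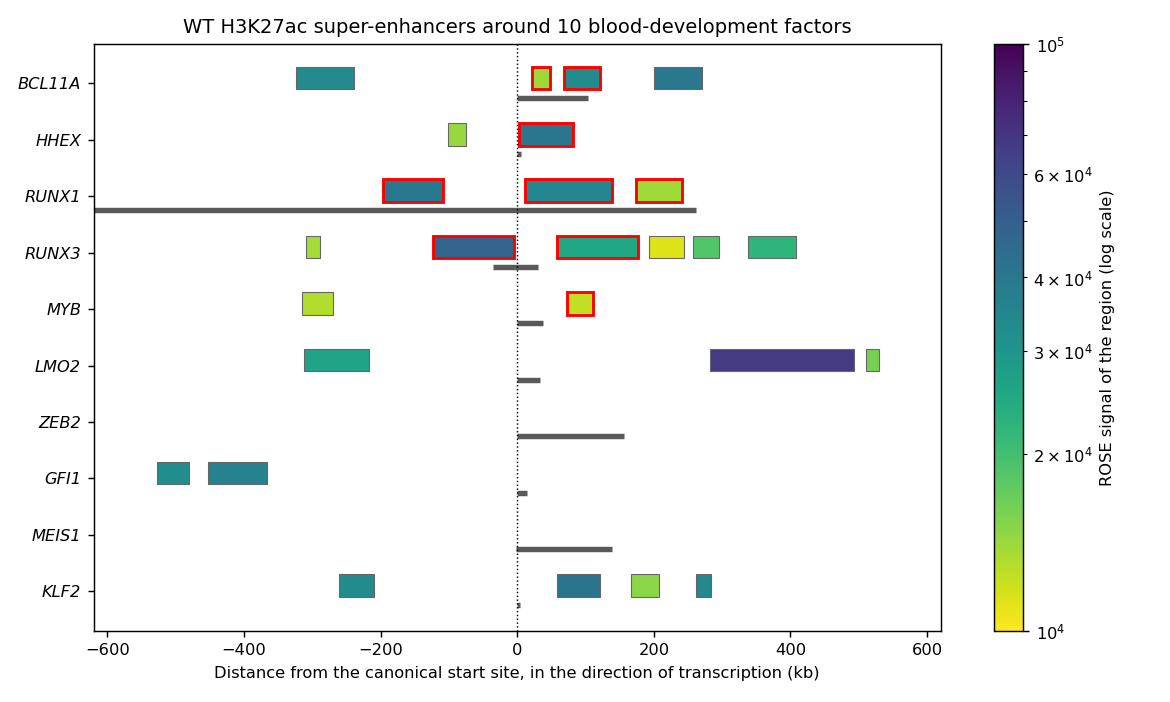
Super-enhancers around each of the 10 factors, by distance in kb from the canonical transcription start site along the direction of transcription, with boxes colored by ROSE signal on a log scale, a red outline for regions within 50 kb of the gene body and a gray bar for the gene body over all transcripts. Outlined boxes appear at BCL11A, HHEX, RUNX1, RUNX3 and MYB, whereas ZEB2 and MEIS1 have no box in the window shown, and the bar of RUNX1 runs past the left edge.

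The 9 regions had a median signal of 32842, against 19736 over all 2615 regions. Of the 9, 6 had a signal above that median and 3 below it. They were also long, with a median of 79.6 kb against 60.7 kb, and held a median of 24 constituents against 16. Signal is a sum over length, and a rule of overlap takes in long regions more readily. The higher medians are therefore not separate traits. Signal per bp had a median of 0.405 against 0.343, and 5 of the 9 lay above the median of all regions. The lowest signal among them was 1.17 times the cutoff of 10617 in the table header, at MYB, and the highest was 4.53 times the cutoff, at RUNX3. None of the 9 contained the start site of a canonical protein-coding transcript, while 44.9% of all regions did. By the study's methods, ROSE left out peaks close to a start site, so promoter peaks do not count as constituents even where a stitched region spans a start site.

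**Figure D2:**
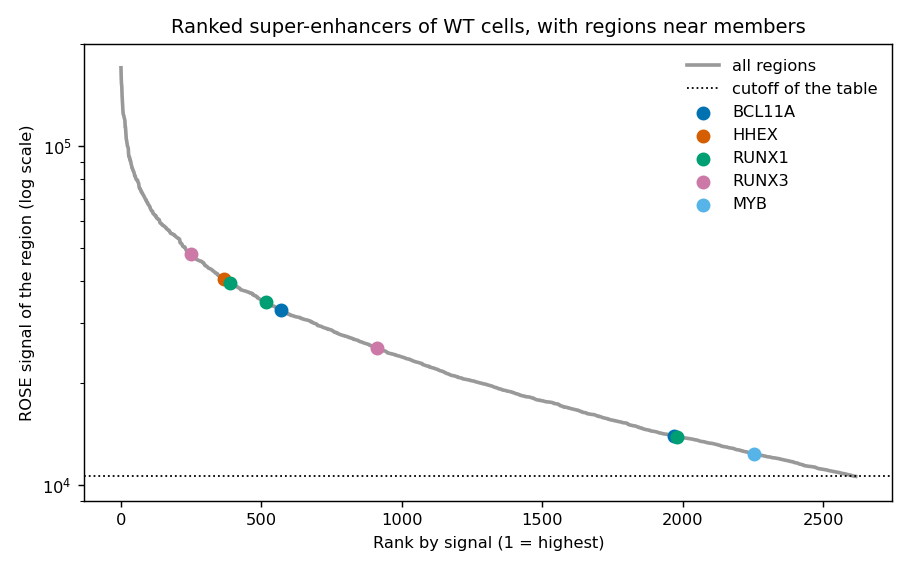
ROSE signal on a log scale against rank for all 2615 regions (gray line), with the 9 regions near the factors as colored points and the cutoff of 10617 as a dotted line. Of the 9, 6 points lie at rank 912 or higher in the table, and the regions of BCL11A at rank 1970, RUNX1 at rank 1980 and MYB at rank 2252 lie further down.

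Several start sites of these genes lay inside or near a region, and the 250 bases before 6 of them are shown, 5′ to 3′ on the strand of the gene. RUNX1 and RUNX3 each have a distal and a proximal promoter, a feature of the Runt family. The first 2 sequences contrast the RUNX3 promoter inside a region with the one outside it, the next 2 are the RUNX1 promoters on either side of a region, and the last 2 are an internal BCL11A start site inside a region and the HHEX start site beside a region. Sequences are from RefSeq (GRCh38.p14), except the RUNX1 distal promoter, which was read from hg38 before the canonical start site. Capitals mark the RUNX core, TGTGGT or ACCACA on the other strand. The windows are chr1:24965011-24965260 (RUNX3 distal), chr1:24930277-24930526 (RUNX3 proximal), chr21:35049303-35049552 (RUNX1 distal), chr21:34888700-34888949 (RUNX1 proximal), chr2:60528536-60528785 (BCL11A internal), all on the minus strand, and chr10:92689705-92689954 (HHEX) on the plus strand.
RUNX3 distal promoter: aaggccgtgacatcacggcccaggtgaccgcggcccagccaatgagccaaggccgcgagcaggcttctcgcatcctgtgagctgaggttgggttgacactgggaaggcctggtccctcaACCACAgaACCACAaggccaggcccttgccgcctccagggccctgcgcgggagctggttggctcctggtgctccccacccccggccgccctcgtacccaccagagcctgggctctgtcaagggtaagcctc
RUNX3 proximal promoter: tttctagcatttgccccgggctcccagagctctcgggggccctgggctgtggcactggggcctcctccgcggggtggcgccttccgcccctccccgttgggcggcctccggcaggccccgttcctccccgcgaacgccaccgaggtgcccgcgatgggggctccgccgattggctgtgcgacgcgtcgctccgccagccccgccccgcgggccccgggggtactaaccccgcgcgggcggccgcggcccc
RUNX1 distal promoter: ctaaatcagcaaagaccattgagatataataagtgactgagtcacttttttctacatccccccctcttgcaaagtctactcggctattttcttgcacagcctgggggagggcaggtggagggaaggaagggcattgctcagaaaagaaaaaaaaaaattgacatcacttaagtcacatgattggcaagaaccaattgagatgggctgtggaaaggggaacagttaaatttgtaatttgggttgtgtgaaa
RUNX1 proximal promoter: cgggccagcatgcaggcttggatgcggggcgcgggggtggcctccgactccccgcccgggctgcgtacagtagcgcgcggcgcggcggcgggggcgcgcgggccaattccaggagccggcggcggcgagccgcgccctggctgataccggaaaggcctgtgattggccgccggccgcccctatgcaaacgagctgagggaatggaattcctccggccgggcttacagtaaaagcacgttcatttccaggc
BCL11A internal promoter: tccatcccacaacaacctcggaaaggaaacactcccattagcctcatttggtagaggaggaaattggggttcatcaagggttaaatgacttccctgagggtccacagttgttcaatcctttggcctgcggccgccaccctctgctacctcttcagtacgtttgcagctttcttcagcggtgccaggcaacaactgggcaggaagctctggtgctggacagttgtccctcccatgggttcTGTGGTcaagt
HHEX promoter: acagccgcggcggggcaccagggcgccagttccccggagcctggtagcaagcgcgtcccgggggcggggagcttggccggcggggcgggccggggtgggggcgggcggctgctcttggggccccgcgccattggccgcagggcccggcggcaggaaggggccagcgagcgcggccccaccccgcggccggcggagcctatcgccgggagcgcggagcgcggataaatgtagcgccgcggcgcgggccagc
The RUNX3 distal promoter holds 2 RUNX cores, and the other 2 RUNX3 and RUNX1 promoters that RefSeq lists hold 0 each, as does the RUNX1 distal promoter. Among 34961 RefSeq promoters of the same length, 11% hold at least 1 RUNX core and 0.975% hold more than 1. The BCL11A internal promoter holds 1 core and the HHEX promoter 0. A match is a run of letters and not a measured binding site.

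RUNX1 and RUNX3 encode Runt-domain factors that bind DNA together with CBFB. RUNX1 is required for the first blood stem cells, and RUNX3 acts in T and natural killer cells and in B cells. RUNX3 (ENSG00000020633.19, chr1:24899511-24965121, minus strand) had the highest-ranked region of the 10 factors, chr1:24934990-25053896, with a signal of 48145, a length of 119 kb, 30 constituents and 0.405 signal per bp. This region began 4.71 kb upstream of the proximal start site, which is the canonical one, and extended away from the gene. It covered the distal start site, from which 2 of the 3 protein-coding RUNX3 transcripts begin. Of its length, 25.3% lay in the gene body and 74.7% outside protein-coding genes, over 4 long non-coding RNA genes that include RUNX3-AS1 and LINC02793. Its GC content was 52.5%, higher than in 85.2% of all regions.

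The second RUNX3 region, chr1:24754155-24871381, lay 28.1 kb downstream of the gene, over CLIC4, which encodes a chloride intracellular channel protein. It had rank 912, a signal of 25391 and 34 constituents over 117 kb. At 0.217 signal per bp it was about as long as the first region but had 0.535 times the signal per bp of the first. The start site nearest to it belonged to CLIC4, at 8.71 kb. The summed signal of both regions was 73536, higher than the sum at 92.7% of the genes of any length with a region.

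RUNX1 (ENSG00000159216.19, chr21:34787801-36004667, minus strand) had 3 regions over its body of 1217 kb. The middle region, chr21:34910397-35037198, lay wholly in intron 2 of the canonical transcript, between the 2 promoters printed above. It ended 12.1 kb from the distal start site. The proximal promoter lay beyond its other end, 13.6 kb from the region of rank 1980, which was the nearest region to that promoter. It had rank 517, a signal of 34667 and 38 constituents over 127 kb, which are the most constituents and the greatest length among the 9 regions. Neither promoter was inside a region.

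The other RUNX1 regions lay on either side. The region chr21:34808487-34875100, over introns 5, 6 and 7 of the canonical transcript, had rank 1980, a signal of 13922 and 24 constituents over 66.6 kb. At 0.209 it had the lowest signal per bp of the 9 regions. The region chr21:35158088-35245825 had rank 389, a signal of 39534 and the same number of constituents over 87.7 kb. It lay 109 kb upstream of the canonical start site, in the gene body as annotated over all transcripts but outside the canonical transcript (chr21:34787801-35049302). With the canonical transcript in place of the full body, RUNX1 kept 2 regions and its best rank was 517. Across the 3 regions signal per bp ran from 0.209 to 0.273 to 0.451, from the 3′ side of the gene to the 5′ side. Their summed signal of 88124 was higher than that at 95.9% of the genes with a region. Those genes were of any length, and the sum was not adjusted for the long body of RUNX1.

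BCL11A encodes a zinc-finger repressor that silences fetal globin in red cells and is needed for B-cell development. BCL11A (ENSG00000119866.22, chr2:60450520-60554467, minus strand) had 2 regions, whose stitched spans together covered 57.6% of its body of 104 kb. Constituents covered 11.7% of the first span and 7.73% of the second. The region chr2:60433159-60484482 crossed the 3′ end of the gene, with 66.2% of its length in the gene body and the rest beyond it, where it met the long non-coding RNA gene MIR4432HG. It had rank 572, a signal of 32842 and 15 constituents over 51.3 kb. At 0.640 it had the highest signal per bp of the 9 regions, and ranked by signal per bp it was 421st in the table.

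The second BCL11A region, chr2:60506116-60532054, lay wholly in intron 2 of the canonical transcript, 21.6 to 47.5 kb after the start site. Exons of other transcripts covered 18.6% of the region. It had rank 1970, a signal of 13983 and 5 constituents over 25.9 kb, the shortest of the 9 regions. A gap of 21.6 kb separated the pair. The signal of the first was 2.35 times that of the second, while its signal per bp was 1.19 times that of the second. The summed signal of both regions was 46825, higher than the sum at 80.4% of the genes of any length with a region. The internal promoter printed above lay inside the second region, and the other 4 RefSeq promoters of BCL11A lay 18.9 to 21.9 kb outside it. By GENCODE, 1 of 17 protein-coding BCL11A transcripts began in a region.

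HHEX encodes a homeobox factor of the endothelium and of blood progenitors that also acts in B cells leaving the germinal center. HHEX (ENSG00000152804.11, chr10:92689955-92695647, plus strand) is a short gene of 5.69 kb with a single region, chr10:92692324-92771918. The region began 2.37 kb after the start site and ran to 82.0 kb past it, so it covered the 3′ part of the gene and the downstream sequence. Because ROSE left out peaks close to a start site, this near edge need not be where H3K27ac begins. Of the 79.6 kb of the region, 4.18% lay in the gene body and 95.8% outside protein-coding genes. It had rank 369, a signal of 40442, 23 constituents and 0.508 signal per bp. That signal was higher than the summed signal at 75.2% of the genes of any length with a region. HHEX was the protein-coding gene the region overlapped and also the one with the nearest start site.

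MYB encodes a factor that keeps blood progenitors dividing and is low in most mature cells. MYB (ENSG00000118513.20, chr6:135181308-135219173, plus strand) had no region in its body. Its region, chr6:135254815-135292107, lay 35.6 kb downstream and overlapped AHI1, a gene of cilium formation. It had rank 2252, a signal of 12388 and 10 constituents over 37.3 kb. The MYB start site was still the nearest to it, at 73.5 kb. The summed signal was higher than that at 12.2% of the genes of any length with a region. In the distance rule, the regions nearest to the limit of 50 kb on its inner side were this region, at 35.6 kb, and the second RUNX3 region, at 28.1 kb. On its outer side the nearest was the region of KLF2, at 54.4 kb.

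**Figure D3:**
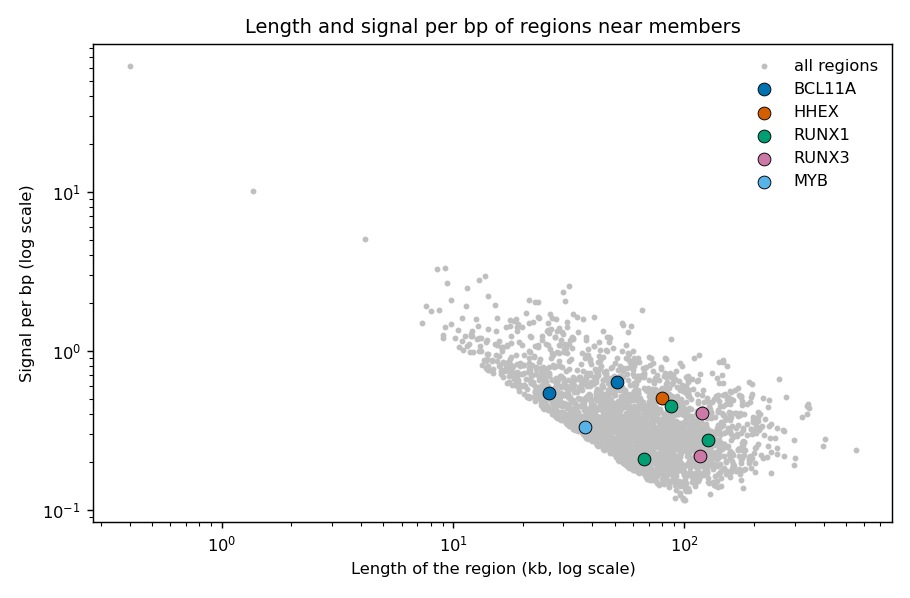
Length in kb against signal per bp of all 2615 regions (gray) and of the 9 regions near the factors (colored by gene), both on log scales. The BCL11A regions are short with 0.539 and 0.640 signal per bp, and the RUNX1 and RUNX3 regions at ranks 1980 and 912 are longer with 0.209 and 0.217.

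The 5 factors without a region differed in how far away the nearest region was, against a median of 408 kb over all protein-coding genes without a region. KLF2 encodes a Krüppel-like factor that controls quiescence and the positioning of lymphocytes. KLF2 (ENSG00000127528.6, chr19:16324826-16328685, plus strand) missed the window by the least: a region of rank 354 and signal 41089 over EPS15L1, chr19:16383078-16445390, lay 54.4 kb downstream. On the other side the nearest region was 210 kb upstream, over TPM4 and RAB8A (rank 568). In all, 4 regions lay within 500 kb of KLF2, in a stretch with 20 start sites of protein-coding genes.

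LMO2 encodes a LIM protein that bridges LDB1, TAL1 and GATA factors in progenitors and is used as a germinal center marker in lymphoma pathology. LMO2 (ENSG00000135363.12, chr11:33858576-33892076, minus strand) had its nearest region 217 kb upstream, chr11:34108985-34203848, over NAT10 and ABTB2, with rank 861, a signal of 26343 and CAPRIN1 in between. On the downstream side a region over KIAA1549L lay 249 kb away, with rank 100 and a signal of 66975. That is a higher signal than at any of the 9 regions.

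GFI1 encodes a zinc-finger repressor that recruits KDM1A and RCOR1 and is active in progenitors and granulocytes. GFI1 (ENSG00000162676.13, chr1:92473043-92486925, minus strand) had its nearest region 366 kb upstream, chr1:92852563-92940296, over DIPK1A and beyond EVI5 and RPL5, with rank 474 and a signal of 36330. No region lay nearer than 2731 kb on its downstream side. ZEB2 encodes a zinc-finger homeobox repressor with roles in myeloid, dendritic and natural killer cells. ZEB2 (ENSG00000169554.23, chr2:144364364-144521057, minus strand) had its nearest region 657 kb upstream, chr2:145177756-145255339, which overlapped no protein-coding gene and had ZEB2 as its nearest start site. That region had rank 2515 and a signal of 11071, which is 1.04 times the cutoff.

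MEIS1 encodes a homeodomain partner of HOXA9 in stem cells and leukemia. MEIS1 (ENSG00000143995.20, chr2:66433452-66573869, plus strand) was the most isolated of the 10, with 0 regions within 1 Mb. Its nearest region, chr2:65369860-65423498, lay 1010 kb upstream over SPRED2, with rank 54 and a signal of 80350. The stretch between neighboring regions that held the start site was 2933 kb at MEIS1, 3111 kb at GFI1 and 1954 kb at ZEB2. At LMO2, MYB, KLF2 and BCL11A it was 499, 343, 269 and 261 kb, and at RUNX1, HHEX and RUNX3 it was 121, 77.1 and 63.6 kb. Gene density differed as well. Within 500 kb of the start site, start sites of other protein-coding genes numbered 0 at MEIS1, 1 at ZEB2 and 9 at GFI1. At the other factors they numbered 3 to 20. The median over all 2592 stretches between neighboring regions, with or without a start site, was 216 kb. A long stretch holds a given start site more readily than a short one, so the 2 measures are not alike. Within 1 Mb of the gene body there were 11 regions at RUNX3, 7 at BCL11A, 6 at KLF2, 5 at RUNX1, 3 each at MYB and LMO2, 2 each at HHEX, ZEB2 and GFI1 and 0 at MEIS1. The median was 3 over the 10 factors and 3 over all protein-coding genes.

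The same window was applied to related genes. Of 13 paralogs of the 10 factors, 2 (15.4%) had a region, and both were MYB relatives: MYBL2 (rank 374) and MYBL1 (rank 765). BCL11B, RUNX2, LMO1, LMO3, LMO4, ZEB1, GFI1B, MEIS2, MEIS3, KLF1 and KLF4 had none. Both ranked above the region of MYB itself, at rank 2252. RUNX2 lay 963 kb from a region, while RUNX1 and RUNX3 had 5 between them.

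Of 14 genes whose products work with the 10 factors, 8 (57.1%) had a region. CREBBP, the acetyltransferase mutated in C and CK, had rank 101, and the GATA factor gene GATA2 had rank 163, from a region 20.5 kb away. LYL1, a relative of TAL1, had rank 599, and the E-protein gene TCF3 had rank 1003. RCOR1, the partner of GFI1, had rank 1006, and LDB1, the partner of LMO2, had rank 1147. CBFB, named after its value was seen because it is the partner of both RUNX factors, had rank 2318, lower than the best region of either RUNX gene. TAL1, GATA1, HOXA9, KDM1A and CHD4 were among those with none. GFI1 and its partner KDM1A were both without a region, as were MEIS1 and its partner HOXA9. By contrast, RCOR1 and LDB1 had a region although GFI1 and LMO2 had none. A region was present at 30.7% of all protein-coding genes, so absence was the more common state.

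All 10 factors of the B lineage had a region, among them BACH2 (rank 66), EBF1 (rank 162), IKZF1 (rank 195), PAX5 (rank 216), FOXO1 (rank 379) and IKZF3 (rank 473). Their median best rank was 426 over all 10, against 389 over the 5 blood-development factors with a region. The 5 blood-development factors without a region have no rank and do not enter the 389. Over the 6140 protein-coding genes with a region, the median best rank was 1183.5. Of 11 factors of other blood lineages, 2 (18.2%) had a region, TCF7 (rank 2308) and NFE2 (rank 2535), and GATA1, KLF1, GFI1B, TAL1, MECOM, CEBPA, CEBPE, GATA3 and BCL11B had none. TCF3 stands in 2 of these lists, as do GATA1, TAL1, KLF1, GFI1B and BCL11B. As a check of cell type, 5 of 8 B-cell markers (62.5%) had a region, against 30.7% of all protein-coding genes. They included MS4A1 and CD79A, but also PAX5 and BCL6, which were already counted among the B-lineage factors. CD22 and CR2 were among those without. No region was near any of 4 T-cell or 4 stem-cell markers. A region was near 1 of 4 myeloid markers (CSF1R, rank 2511) and 1 of 4 erythroid markers (EPOR, rank 2039), both below the median rank of the table. Lists of 4 genes are too short to set such counts apart from the 30.7% of all protein-coding genes.

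The count of factors with a region ran from 4 to 6 over other windows and signal limits. With the gene body alone it was 4 (17.3% of all protein-coding genes), with 10 kb on each side it was 4 (20.8%), and with 100 kb it was 6 with KLF2 added (39.7%). With the canonical transcript extended by 50 kb it was 5 (30.3%), and within 50 kb of the canonical start site it was 4 (26%). Among regions above the median signal it was 4 (16.8%), and among those at 1.5 times the cutoff or more it was 4 (21.4%). With each region given to its nearest start site it was 6 with ZEB2 added (13.6%).

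**Figure D4:**
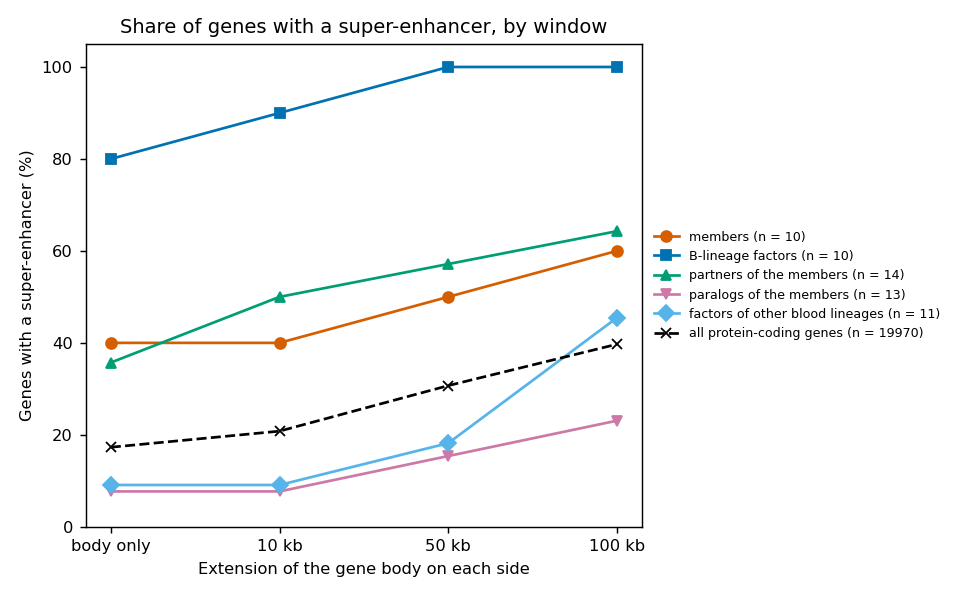
Percentage of genes with a super-enhancer when the gene body is taken alone or extended by 10, 50 or 100 kb on each side, for the 10 factors, the 4 lists of related regulators and all 19970 protein-coding genes. The 10 factors run from 40% to 60%, above all genes (17.3% to 39.7%) and below the B-lineage factors at each window.

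The DNA of the 9 regions was searched on both strands for exact short cores, and matches were counted per kb. The whole stitched span was searched. Constituents covered a median of 11.6% of the span in the 9 regions and 11.2% in all regions. The densities therefore describe mostly DNA between peaks. Cores were counted separately, so the MYB and MEIS cores, which can share letters, may be counted in the same place. The core of PU.1, GAGGAA, had a median of 1.00 per kb in the 9 regions, against 0.898 over all 2615 regions, and 8 of the 9 were above it. The same 8 of 9 held against regions in the same of 10 classes of GC content. The E-box of ZEB and TCF3, CAGGTG, went the other way, with a median of 1.01 per kb against 1.31, and 1 of the 9 was above, or 3 of the 9 within the same class of GC content.

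Cores of the families that these genes encode lay on both sides of the medians of all regions. The RUNX core, TGTGGT, had a median of 0.741 per kb against 0.819, with 3 of the 9 above by either comparison. The MYB core, AACTG, had 2.37 against 2.17. The MEIS core, TGACAG, had 0.771 against 0.739. The KLF core, CCACCC, had 0.776 against 0.874 with 4 of the 9 above, but 7 of the 9 above the median of their class of GC content. It ran from 0.375 at the MYB region, the only value of any core outside the 5th to 95th percentile of all regions, to 1.94 at the RUNX3 region of rank 249. The GATA core, AGATAA, had 0.662 against 0.576 with 6 of the 9 above, but 3 of the 9 above the median of their class of GC content. The octamer bound by POU factors, searched as ATGCAAA, had 0.295 against 0.207, with 6 of the 9 above by either comparison. Median GC content was 43.5% in the 9 regions and 45.7% in all.

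**Figure D5:**
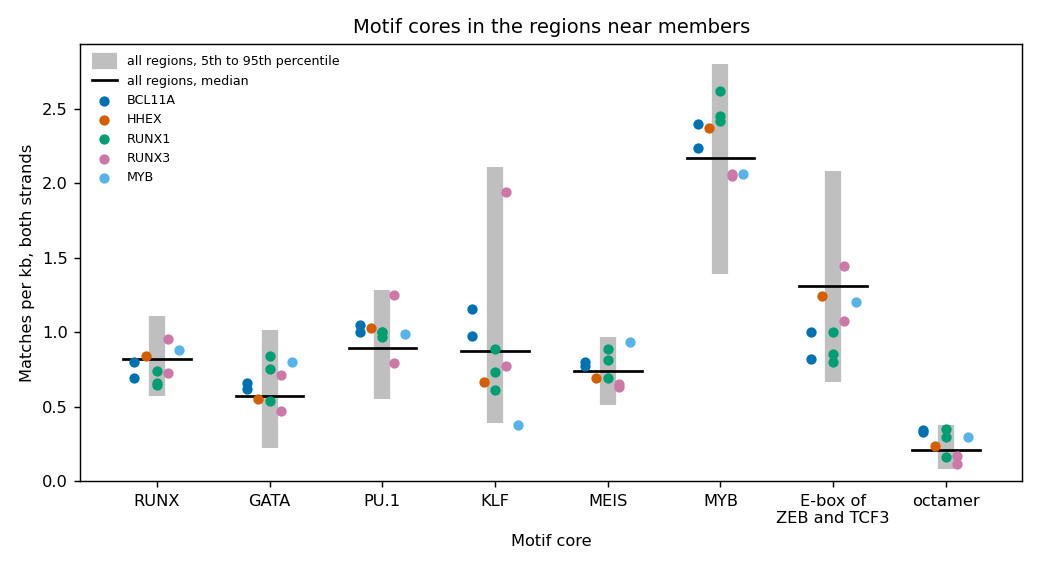
Matches per kb on both strands of 8 motif cores in the 9 regions near the factors (points colored by gene), with the median of all 2615 regions as a black line and their 5th to 95th percentile as a gray bar. The points for PU.1 lie mostly above the line and those for the E-box mostly below it.

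At promoters, 2 of the 16 RefSeq promoters of these genes (12.5%) lay inside a region, against 8.41% of 34961 promoters. They were the distal promoter of RUNX3 and the internal promoter of BCL11A, both printed above. Both carry at least 1 RUNX core, as do a GFI1 promoter 366 kb and the MEIS1 promoter 1011 kb from the nearest region.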

How the data were processed

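CUT&RUN of H3K27ac was performed by the authors in WT OCI-Ly7 cells with 2 biological replicates. Per the study's methods, the authors ran the nf-core cutandrun pipeline on hg38, used IgG libraries of the same genotype as control, and normalized for depth by the reads in promoters. SEACR gave the peaks, MACS2 their summits, and ROSE the super-enhancers, with peaks near a protein-coding TSS left out. The deposited values are the ROSE signal per stitched region of the combined WT libraries, with a stitching distance of 12.5 kb and a signal cutoff of 10617 in the header. The header states no unit and the table has no control column, so the signal was used as a relative value within the table. Regions under the cutoff were not analysed here. Sequencing depth is not given in the table, and no interval for counting error was computed.

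The deposited number of constituents, their summed length and the rank were used as given. Signal was divided by the region length, end minus start, for signal per bp. Genes were the 19970 protein-coding genes of GENCODE version 44, the canonical transcript was the one tagged by Ensembl, and gene length was split into 10 equal classes. Motif cores were exact matches on both strands of hg38, and promoters were the 250 bases before RefSeq start sites. Promoters were found for 9 of the 10 genes, and 16 of 16 were identical to hg38. All 10 genes were named with all their regions. From each list of related regulators, the genes with a region were named by rank, up to 6, together with those without one, and 2 genes of these lists and of the cell type markers, which stay in the counts, are not reported here by name. The genes, lists and comparisons were chosen with earlier results of these data known. Procedures were tested on simulated data. Alternatives were other windows, the canonical transcript, stricter signal limits, the nearest start site and rank by signal per bp. The planned limma comparison of C, K and CK with WT was not run, since it needs values of single samples. Software versions were Python 3.11.15, pysam 0.24.0, matplotlib 3.10.9, pandas 2.3.3 and numpy 2.4.6.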

Additional observations from a re-analysis of the deposited data

How the results depend on the processing

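The count of factors with a region was 5 in the reported window and ranged from 4 to 6 over the alternatives. MYB was lost with the gene body alone, with 10 kb, with 50 kb around the canonical start site and at both stricter signal limits. KLF2 was gained with 100 kb, and ZEB2 by the nearest start site. The number of distinct regions was 9, and it fell to 4 with 50 kb around the canonical start site, where the best rank of BCL11A was 1970 and that of RUNX1 was 517. The median best rank was 389 by signal and 825 by signal per bp, where the order was BCL11A (421), HHEX (666), RUNX1 (825), RUNX3 (986) and MYB (1374). That order differs from the order by signal. Of 8 motif cores, 5 had a median above that of all regions, and 5 did so within the same class of GC content, but not the same 5: the ratio of GATA went from 1.15 to 0.988 and that of KLF from 0.888 to 1.09. Counts ranged from 1 to 3 for paralogs, from 5 to 9 for partners, from 7 to 10 for B-lineage factors and from 0 to 5 for factors of other blood lineages. These list alternatives were chosen after seeing the data. No paired analysis was possible because the table has a single pooled column with no value per sample, and leaving out a replicate was not possible for the same reason. With a pooled column, the spread between the WT libraries is unknown, and so is the depth behind each signal.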

Other observations

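Beyond the window of 50 kb, further regions lay around several of the factors. At BCL11A, a region of rank 384 with a signal of 39707, higher than either region of the gene, lay 97.8 kb downstream and overlapped no protein-coding gene, and a region of rank 549 over PAPOLG lay 238 kb upstream. At HHEX, a region of rank 1912 with a signal of 14314 over the kinesin gene KIF11 lay 74.8 kb upstream. At RUNX3, regions of rank 2467, 1402 and 1100 lay 161, 227 and 307 kb downstream, and a region of rank 2033 over SYF2 lay 254 kb upstream. At MYB, a region of rank 2135 lay 269 kb upstream and overlapped no protein-coding gene. At KLF2, a region of rank 537 lay 257 kb downstream, with a signal of 33827 over 22.2 kb and 1.52 signal per bp, over 4 constituents. On the far side of MEIS1, the nearest region lay 1783 kb downstream over PLEK and FBXO48, with rank 284. On the far side of ZEB2, it lay 1140 kb downstream over ARHGAP15, with rank 971.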
